A study of Mus musculus with 6 samples.

Results

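Fc gamma receptors bind the constant part of IgG, so that a cell that carries them senses antibody-coated particles and immune complexes. The set described here holds 7 mouse genes: the activating receptors Fcgr1, Fcgr3 and Fcgr4, the inhibitory receptor Fcgr2b, the adaptors Fcer1g and Tyrobp, and the kinase Syk. They were taken by symbol from the platform annotation, and all 7 were measured, by 15 probe sets, among 18193 genes. Each gene was read from the probe set with the highest mean over all arrays, and the 8 further probe sets served as a check.

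The samples were total RNA of the retinal pigment epithelium (RPE), the cell layer that supports the photoreceptors, from mice of the albino strain BALBc, on 6 Affymetrix arrays. The 3 light-damaged arrays came from mice given 1 week of darkness and then 1.5 h of white fluorescent light at 6000 lux, with tissue taken 24 h later. The 3 dark-adapted arrays came from mice that had the same week of darkness and no damaging light. The labels give no age and leave unsaid whether each array had its own mouse or a pool of mice. A p-value here therefore reflects only how these 6 arrays scatter, and that scatter may be technical. The number of arrays limits the precision.

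As background, the activating receptors signal through the immunoreceptor tyrosine-based activation motif (ITAM) of the Fc receptor gamma chain, encoded by Fcer1g. Tyrobp encodes DAP12, the ITAM adaptor of receptors such as TREM2. Src family kinases phosphorylate the ITAM tyrosines, Syk docks on them and becomes active, and phagocytosis, an oxidative burst and cytokine release follow. Fcgr2b carries an inhibitory motif (ITIM) that recruits the lipid phosphatase SHIP1 and dampens this signal. In retina and RPE samples these genes are known mainly from microglia and macrophages.

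In light-damaged RPE 5 of the 7 genes rose, Fcgr1, Fcgr3, Fcer1g, Tyrobp and Syk, by 1.69-fold to 2.50-fold, and none fell. Fcgr2b missed the threshold on its chosen probe set and Fcgr4 was nearly level. The threshold was an adjusted p under 0.05 in limma, a linear model across all genes in which arrays of one replicate number form a block. By it 3.07% of all genes were called higher and 1.92% lower. The median difference of the 7 genes was 0.97 on the log2 scale, against 0.00 (-9.4e-05) over all genes. Every member was higher in light-damaged RPE in 3 of 3 pairs, as were 19.9% of all genes. For 6 of the 7 every light-damaged array lay above every dark-adapted array, as for 6.61% of all genes. No member passed without the block, where 0.0495% of genes were called higher. The adjusted p of the members then lay between 0.0837 for Fcgr1 and 1.00 for Fcgr4, and 6 of the 7 had an unadjusted p under 0.05 and were higher, as for 3.96% of all genes. Values below are log2 RMA levels per array in the order of replicates 1, 2 and 3, and differences are light-damaged minus dark-adapted ± standard error of the blocked fit.

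The windows before the start sites of 4 members are shown because the promoters of myeloid receptor genes are known to carry sites of PU.1, the product of Spi1, and because the human counterpart of Fcgr1 is known to answer interferon gamma. Each is the 250 bases upstream of the start in RefSeq (GRCm38.p6), in the direction of the gene. Capitals mark matches, on either strand, to GAGGAA (the PU.1 core, TTCCTC on the other strand), TTCNNNGAA (a gamma-activated site) or an interferon-stimulated response element (GAAA, any 2 bases, GAAA).
Fcgr1, chr3:96293970-96294219, minus strand: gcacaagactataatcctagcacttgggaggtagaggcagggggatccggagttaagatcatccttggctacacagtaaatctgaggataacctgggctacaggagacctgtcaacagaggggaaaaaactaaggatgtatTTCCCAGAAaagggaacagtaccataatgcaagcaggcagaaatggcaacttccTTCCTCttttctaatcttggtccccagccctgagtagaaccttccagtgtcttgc
Fcgr3, chr1:171059395-171059644, minus strand: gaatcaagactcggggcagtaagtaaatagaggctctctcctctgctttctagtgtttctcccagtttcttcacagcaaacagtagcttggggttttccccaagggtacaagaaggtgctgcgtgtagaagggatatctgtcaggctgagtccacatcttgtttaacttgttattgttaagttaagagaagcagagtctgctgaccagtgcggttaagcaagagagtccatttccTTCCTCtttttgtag
Fcgr4, chr1:171018676-171018925, plus strand: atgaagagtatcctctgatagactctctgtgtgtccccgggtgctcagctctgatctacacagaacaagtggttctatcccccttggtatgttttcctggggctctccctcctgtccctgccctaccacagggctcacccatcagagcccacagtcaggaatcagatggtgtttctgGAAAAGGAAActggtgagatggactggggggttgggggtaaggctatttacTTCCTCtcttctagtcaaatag
Fcer1g, chr1:171234350-171234599, minus strand: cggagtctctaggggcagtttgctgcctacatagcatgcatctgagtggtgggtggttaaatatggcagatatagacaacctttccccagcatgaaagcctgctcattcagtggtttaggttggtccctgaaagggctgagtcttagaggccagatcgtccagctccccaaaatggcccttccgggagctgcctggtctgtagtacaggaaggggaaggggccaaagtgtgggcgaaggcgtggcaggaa

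GAGGAA was found in the windows of 4 of the 6 members with an entry, Fcgr1, Fcgr3, Fcgr4 and Syk, against 25.9% of 27025 genes with a window of that length. In Fcgr1 it ended 49 bases before the start, in Fcgr4 16 bases and in Fcgr3 9 bases before the start shown. Fcgr1 and Fcgr3 shared the run TTCCTTCCTCTTTT of 14 bases around it. TTCNNNGAA was matched in Fcgr1, as TTCCCAGAA, and in 8.13% of all genes. The interferon-stimulated response element was matched in Fcgr4 and in 3.46% of all genes. The windows of Fcgr2b and Fcer1g held none of the 3 motifs, and for Syk the match lay in the second of its 2 windows. A match is a description of letters and not a binding site. Fcgr1 and Fcgr4 each had 2 of the motifs matched, and Fcgr1 rose while Fcgr4 did not pass. Fcgr3 and Syk, with GAGGAA only, rose. With none matched, Fcer1g rose and Fcgr2b did not pass. A link between motif and change was not tested.

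Fcgr1, which encodes CD64, the high-affinity IgG receptor, had the largest rise of the 7. Its levels were 8.93, 8.35 and 8.54 in light-damaged RPE, against 7.40, 7.20 and 7.27 in dark-adapted RPE. The groups stood 0.95 apart at their nearest arrays. The difference was 1.32 ± 0.10 or 2.50-fold (95% interval 2.10 to 2.97, limma adjusted p = 0.0026), rank 70 among the rises of all genes. The second probe set of Fcgr1, almost as bright, gave a smaller difference. It read 8.26, 7.95 and 8.08 in light-damaged RPE and 7.80, 7.72 and 7.74 in dark-adapted RPE. Its groups did not overlap either, but its difference of 0.34 ± 0.09 did not pass among 34945 probe sets (limma adjusted p = 0.107). The size of the Fcgr1 rise thus depends on the probe set.

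**Figure D1:**
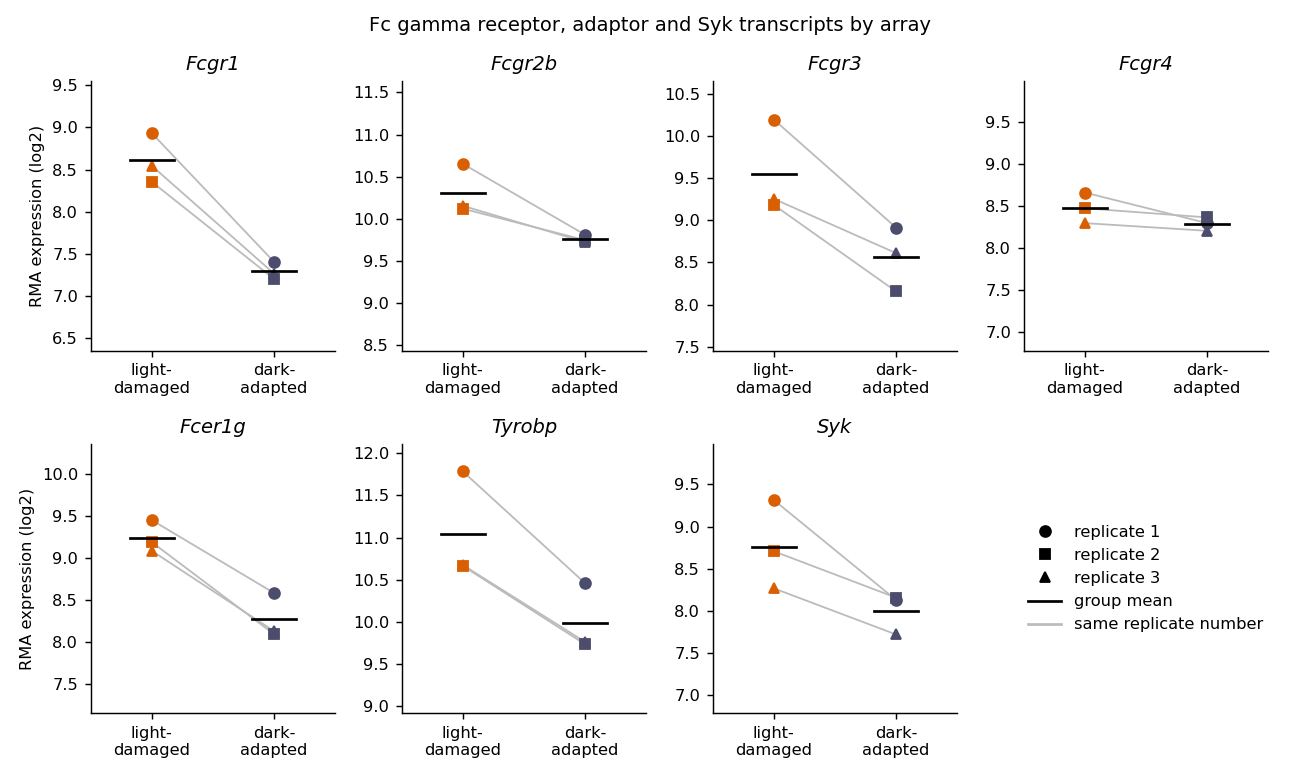
Log2 RMA level (vertical axes, each spanning the same range) of the 7 genes in the 3 light-damaged (left, orange) and 3 dark-adapted (right, dark blue) arrays, with lines joining arrays of the same replicate number and bars at the group means. The groups are apart for all genes but Fcgr4, and replicate 1 is the highest light-damaged array for all 7.

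Fcgr3 encodes CD16, a low-affinity receptor for IgG complexes. It had 10.20, 9.18 and 9.25 in light-damaged RPE, against 8.91, 8.16 and 8.61 in dark-adapted RPE. The light-damaged replicate 1 array was about 1 log2 unit above the other two of its group. The difference was 0.98 ± 0.13 or 1.98-fold (limma adjusted p = 0.0133), and the pair differences were 1.28, 1.03 and 0.64. Fcgr3 had 1 probe set, so there is no check from a second.

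Fcgr4 encodes a receptor of intermediate affinity for the mouse subclasses IgG2a and IgG2b. Its levels were 8.66, 8.47 and 8.29 in light-damaged RPE, against 8.29, 8.36 and 8.20 in dark-adapted RPE, and the groups overlapped. The difference of 0.19 ± 0.10 did not pass (limma adjusted p = 0.376), and its 95% interval ran from 0.97-fold to 1.34-fold. That interval lies below those of the chosen Fcgr1 probe set and of Fcgr3, whose lower bounds were 2.10-fold and 1.59-fold. The second Fcgr1 probe set, at 1.27-fold, lay within it. The single Fcgr4 probe set had a middling level, at the 52.0th percentile of genes in light-damaged RPE and the 48.9th in dark-adapted RPE.

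Fcgr2b, the inhibitory receptor, had 10.65, 10.12 and 10.15 in light-damaged RPE, against 9.81, 9.75 and 9.72 in dark-adapted RPE. The groups did not overlap and the dark-adapted arrays lay within 0.1 of each other. The difference was 0.55 ± 0.12 or 1.46-fold, with a limma adjusted p of 0.0520, so that it narrowly missed the threshold. Its 4 further probe sets gave other sizes. One of them, an s_at probe set, read 11.26, 10.14 and 9.89 in light-damaged RPE against 9.40, 9.26 and 8.97 in dark-adapted RPE, a difference of 1.22 ± 0.19 (limma adjusted p = 0.0246). A further one, an a_at probe set, read 9.09, 8.94 and 8.98 against 7.77, 7.96 and 7.99, a difference of 1.09 ± 0.10 (limma adjusted p = 0.0049). An x_at probe set gave 0.66 ± 0.11 (limma adjusted p = 0.0298), and a dim one near the lower end of the scale gave 0.19 ± 0.10. So 3 of the 5 Fcgr2b probe sets passed, where 2.38% of all probe sets were called higher, and the brightest did not. Probe sets ending in s_at and x_at can bind related transcripts, and Fcgr2b and Fcgr3 are alike in their outer domains. Of the 3 that passed, the one at 1.09 has neither ending. The part of such binding in these differences was not tested.

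**Figure D2:**
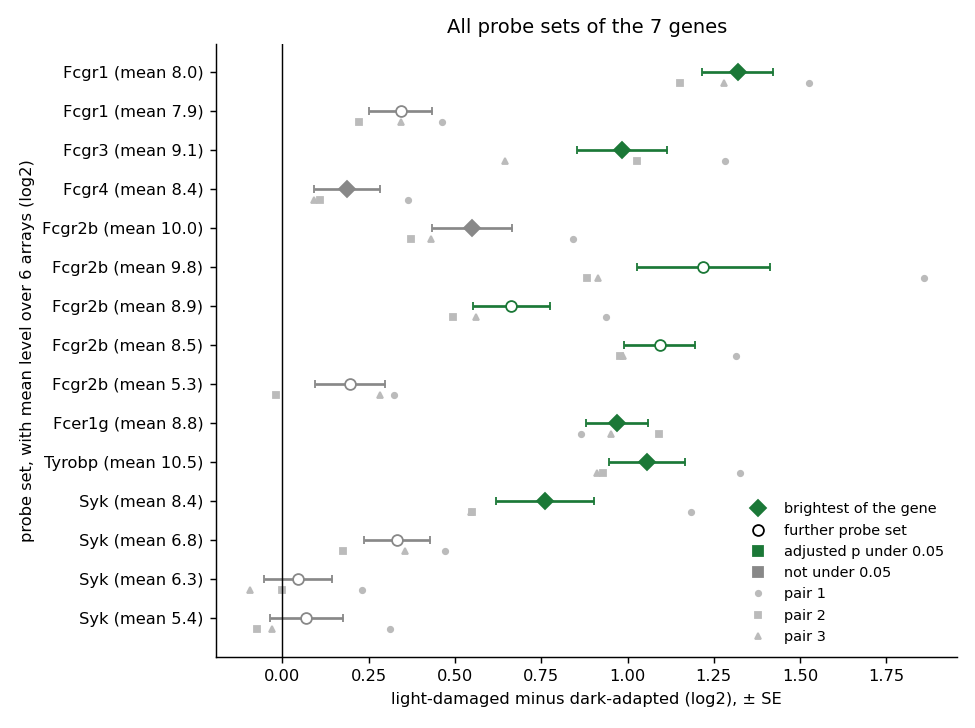
Light-damaged minus dark-adapted difference (log2, horizontal axis, ± SE of the blocked fit) of all 15 probe sets of the 7 genes, named with their mean level over all arrays, with diamonds for the brightest of each gene, green for an adjusted p under 0.05 and small grey marks for the single pairs. All 15 lie above 0, and 8 passed, where 2.38% of all probe sets were called higher.

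Fcer1g, whose protein is the common ITAM chain of Fcgr1, Fcgr3 and Fcgr4 and of the IgE receptor, had 9.45, 9.19 and 9.08 in light-damaged RPE, against 8.58, 8.09 and 8.13 in dark-adapted RPE. The groups were 0.50 apart. The difference was 0.97 ± 0.09 or 1.96-fold (limma adjusted p = 0.0047). The pairs differed by 0.86, 1.09 and 0.95, so that pair 1 did not have the largest difference here, although replicate 1 was the highest array in both groups. Tyrobp, whose protein pairs with TREM and other myeloid receptors, had 11.78, 10.66 and 10.67 in light-damaged RPE, against 10.46, 9.73 and 9.76 in dark-adapted RPE. Replicate 1 was the highest array in both groups, and the lowest light-damaged array was 0.20 above the highest dark-adapted one. The difference was 1.06 ± 0.11 or 2.08-fold (limma adjusted p = 0.0066). Both adaptors had 1 probe set each.

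Syk, the tyrosine kinase that binds phosphorylated ITAMs, had 9.32, 8.71 and 8.27 in light-damaged RPE, against 8.13, 8.16 and 7.72 in dark-adapted RPE. The light-damaged arrays spread over about 1 log2 unit, and the lowest of them was 0.11 above the highest dark-adapted array. The difference was 0.76 ± 0.14 or 1.69-fold (limma adjusted p = 0.0371). Syk was the least secure of the 5 rises. The call was lost after a further quantile normalization (adjusted p = 0.0737), with 16 added to the linear values (0.0517), with the mean of all its probe sets (0.166) and without replicate 3 (0.0864). Its 3 dimmer probe sets gave 0.33, 0.04 and 0.07, none of which passed.

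The pairs were not alike. The median difference of the 7 genes was 1.18 in pair 1, 0.93 in pair 2 and 0.64 in pair 3, against -0.00 (-4.0e-04), -0.02 and 0.02 over all genes. Pair 1 had the largest difference for 6 of the 7 genes. Replicate 1 was the highest light-damaged array for all 7 and the highest dark-adapted array for 5. The shares of all genes with these patterns are not given here, so the counts are not read as particular to the 7. Over all genes, deviations of light-damaged replicate 1 from its group mean correlated at 0.89 with those of dark-adapted replicate 1. With dark-adapted replicates 2 and 3 they correlated at -0.72 and -0.84. The replicate 1 arrays also stood apart in RNA quality. The 3′ minus 5′ difference of the Gapdh control probe sets was 2.48 in the light-damaged and 2.45 in the dark-adapted replicate 1 array, and 1.54 to 1.80 in the other 4. The mean of the 18S control probe sets was 10.72, 13.06 and 12.98 in light-damaged RPE, against 11.38, 13.24 and 13.30 in dark-adapted RPE, so it was lowest in replicate 1 and lower in light-damaged RPE in 3 of 3 pairs. The part of either in the members' levels was not tested. Without the replicate 1 arrays the same fit again called the 5 genes named above. The range of all genes called when a pair is left out is given in the closing section. Fcgr1 was at 1.22 ± 0.09, Fcer1g at 1.02 ± 0.10, Tyrobp at 0.92 ± 0.09, Fcgr3 at 0.83 ± 0.12 and Syk at 0.55 ± 0.09. Fcgr2b was at 0.40 ± 0.09 (limma adjusted p = 0.0518) and Fcgr4 at 0.10 ± 0.09 there. With 2 arrays a group and the block, most of each standard error in that fit came from the spread over all genes. Those errors are therefore not each gene's own precision, and smaller ones than with all arrays do not mark firmer rises.

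Whether the activating genes rose more than the inhibitory receptor was asked within each array, as the log2 level of a gene minus that of Fcgr2b. The change of Fcgr1 exceeded that of Fcgr2b by 0.77, with pair values of 0.69, 0.78 and 0.85. For Tyrobp the excess was 0.51 (0.48, 0.56 and 0.48), for Fcgr3 0.44 (0.44, 0.65 and 0.21) and for Fcer1g 0.42 (0.02, 0.72 and 0.52). For Syk it was 0.21, and for Fcgr4 the value was -0.36, with -0.48, -0.26 and -0.34 in the pairs. In 3 of 3 pairs each of these kept its sign. The exact two-sided permutation p was 0.10 for Fcgr1, Fcgr4 and Fcer1g, the smallest that 20 assignments allow, 0.30 for Fcgr3 and Tyrobp and 0.40 for Syk, and over the 6 comparisons the smallest adjusted p was 0.20. Permuting within the pairs, an alternative added after seeing the data that keeps the block, gave an exact two-sided p of 0.25 for each of the 6, the smallest that 8 assignments allow. The design could not reach 0.05 in either test. The sizes rest on the probe sets. With every gene read as the mean of its probe sets, the Fcgr1 excess was 0.09 with pair values of -0.06, 0.15 and 0.18, and Tyrobp had 0.31, Fcgr3 0.24, Fcer1g 0.23, Syk -0.44 and Fcgr4 -0.56. With only Fcgr2b read that way, also added after seeing the data, Fcgr1 had 0.58 and Syk 0.02.

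Genes of the wider pathway were read from lists drawn up for these arrays with earlier results known. Of 18 measured receptors that pair with Fcer1g or Tyrobp or signal through Syk, 5 rose and none fell, with a median difference of 0.22. They were the C-type lectins Clec4d (1.00 ± 0.10), Clec4n, also called Dectin-2 (0.85 ± 0.11), and Clec7a, the beta-glucan receptor Dectin-1 (0.84 ± 0.10), with Cd300lb (0.78 ± 0.11) and Pilrb1 (0.59 ± 0.12). Clec4e, or Mincle, had 0.93 ± 0.22 and did not pass (limma adjusted p = 0.070). Trem2, the lipid-sensing partner of Tyrobp on microglia, had 0.20 ± 0.10, Trem1 had 0.19 and Trem3 had 0.17, and none of the 3 passed. The alpha chain of the IgE receptor, Fcer1a, had 5.12 in light-damaged and 5.02 in dark-adapted RPE on average, near the lower end of the scale.

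Of 26 measured genes for kinases, signalling proteins and effectors downstream, 14 rose, 0 fell and the median was 0.52. Itgb2, the beta chain of the complement receptor integrin, rose 3.00-fold, and Ncf4, a cytosolic subunit of the phagocyte NADPH oxidase, 2.89-fold. Rac2, the small GTPase of that oxidase, rose 2.16-fold and Pik3ap1, an adaptor of PI3-kinase, 2.03-fold. The limma adjusted p of these 4 lay between 0.0012 and 0.0072, although the second probe sets of Rac2 and Pik3ap1 gave 0.02 and -0.02. Vav1 and Plcg2, both substrates of Syk, rose by 0.53 and 0.54, while the kinase gene Btk had 0.40 ± 0.08 (limma adjusted p = 0.0509); these 3 were chosen after their values were seen. Of 7 called genes of this list with another probe set, 4 had one that was also higher, with an unadjusted p below 0.05.

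Of 22 measured inhibitory receptors, phosphatases and other negative regulators, 3 rose, 0 fell and the median was 0.17. Clec4a2, an ITIM lectin receptor, rose 2.81-fold, but its second probe set gave 0.02. Inpp5d, which encodes SHIP1, the phosphatase that Fcgr2b recruits, rose 1.52-fold (0.61 ± 0.10), with 0.06 from its second probe set. Ptpn6, which encodes the phosphatase SHP-1, rose 1.37-fold, and its second probe set gave 0.74. On the ligand side, 17 immunoglobulin, pentraxin and other immunoglobulin receptor genes were measured, of which Fcrls and Ptx3 rose and none fell. Fcrls, a Fc receptor-like gene of mouse microglia, rose 2.27-fold (1.18 ± 0.17), and the pentraxin Ptx3 1.61-fold, with -0.02 from its second probe set. Fcgrt, the neonatal receptor for IgG, had 0.01 ± 0.13, with pair values of -0.32, 0.30 and 0.07. Ighm, the IgM heavy chain, had 0.04 ± 0.27, with -0.81, 0.81 and 0.13 in the pairs. The IgG heavy chain gene Ighg3 had 0.18 ± 0.14, with 0.58, 0.03 and -0.06, and did not pass. These 3 were chosen after their values were seen.

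**Figure D3:**
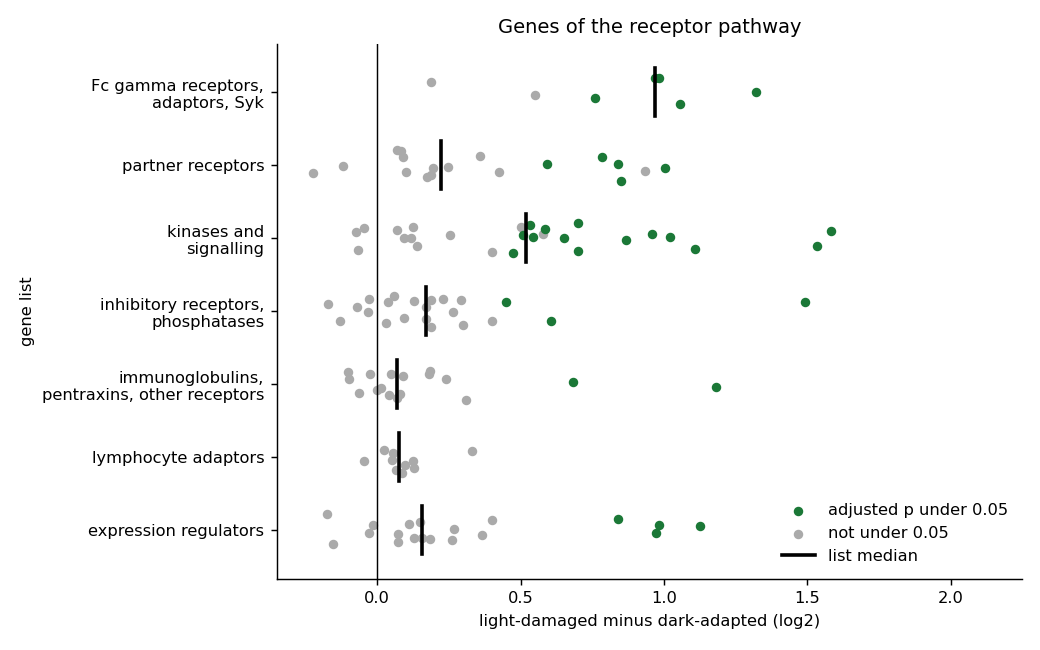
Light-damaged minus dark-adapted difference (log2, horizontal axis) of each measured gene of the 7-gene set and of the pathway lists, with a black bar at each list median and green points for an adjusted p under 0.05. The medians are 0.97 for the 7 genes, 0.52 for kinases and signalling and at most 0.22 for the other lists.

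ITAM chains and related adaptors of lymphocytes were set beside Fcer1g and Tyrobp. None of 10 measured passed in limma, 1 had an unadjusted p under 0.05, as did 19.0% of all genes in either direction, and their median was 0.08. The T cell receptor chains Cd3e, Cd3g, Cd3d and Cd247 had 0.13, -0.05, 0.02 and 0.07, and the B cell receptor chains Cd79a and Cd79b had 0.10 and 0.06. The mean levels of these chains in light-damaged RPE ran from 5.06 for Cd3g to 8.58 for Cd3e. Cd79b, at 5.93, and Cd247, at 6.34, were also low on the scale. RMA compresses differences near the background, so small differences of the dim chains say little. Hcst, which encodes the adaptor DAP10, was that 1, with 0.33 ± 0.12 (limma adjusted p = 0.186). Zap70, the relative of Syk in T cells, had 0.05 ± 0.08.

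Of 19 measured genes listed as possible regulators of Fc receptor expression, 4 rose, with a median of 0.16. Spi1, which encodes the myeloid transcription factor PU.1 and also stands on the macrophage list, rose 1.96-fold (0.97 ± 0.11, limma adjusted p = 0.0069), and Irf8, its partner factor, 1.79-fold (0.84 ± 0.10, limma adjusted p = 0.0092). C3ar1, the receptor for the complement fragment C3a, rose 1.98-fold and Irf9, of the interferon-activated complex, 2.18-fold. C5ar1, another complement receptor of the list, had 0.13 ± 0.09 (limma adjusted p = 0.527) and was chosen after its value was seen. Ifng itself, the cytokine that raises Fcgr1 in macrophages, had 5.10 in light-damaged and 5.25 in dark-adapted RPE and did not pass. These levels are near the lower end of the scale, so the probe set cannot tell whether Ifng changed. It was chosen after its value was seen.

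Of all genes outside the 7, Irf8 had the pattern over the 6 arrays that was nearest to their mean. A part of Irf8 in their levels was not tested. Likeness was the root mean square distance between a gene's levels, centred on its own mean, and the mean centred profile, which was 0.85, 0.23 and 0.17 in light-damaged and -0.21, -0.52 and -0.52 in dark-adapted RPE. Irf8 was at 0.02 log2 units, followed by Tmem106a at 0.06, Sbno2 at 0.06, Ung at 0.07, Grwd1 at 0.09 and Tcf19 at 0.09. The 7 genes themselves lay between 0.14 for Fcer1g and 0.36 for Fcgr4. These arrays share the replicate 1 offset, so nearness describes both that offset and the light difference.

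The genes of 4 members lie close together, in the order Fcgr2b, Fcgr4, Fcgr3 and Fcer1g, on chromosome 1 in the GRCm38.p6 gene table. The 16 measured protein-coding genes between them and next to them, 5 on each side, were read as a comparison chosen after seeing the data. None passed in limma, where 3.07% of all genes were called higher and 1.92% lower. An unadjusted p under 0.05 was found for 1 of them, and for 19.0% of all genes in either direction. Their differences lay between -0.16 and 0.24 with a median of -0.01. Fcgr4, at 0.19, lay within that range although it stands between Fcgr2b and Fcgr3. Fcgr1 is on chromosome 3, Tyrobp on chromosome 7 and Syk on chromosome 13.

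**Figure D4:**
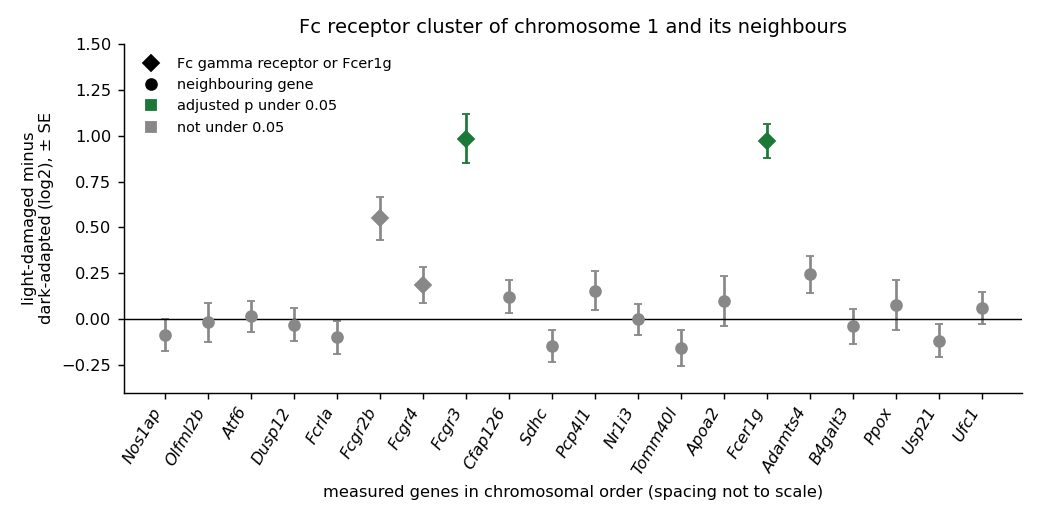
Light-damaged minus dark-adapted difference (log2, vertical axis, ± SE) of the measured genes around the Fc receptor cluster in chromosomal order, with diamonds for the 4 members and green for an adjusted p under 0.05. Fcgr3 and Fcer1g stand near 1, Fcgr2b at 0.55, and the 16 neighbours between -0.16 and 0.24.

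In bulk RPE samples, more cells of a type and more RNA per cell cannot be told apart, and markers of macrophages and microglia moved with the members. Of 22 such markers measured, none of them a member, 16 rose, 0 fell and the median was 0.93. Their mean level was 10.38, 10.20 and 10.22 in light-damaged RPE, against 9.60, 9.38 and 9.47 in dark-adapted RPE. Over the same arrays the mean of the 7 genes was 9.86, 9.24 and 9.18 in light-damaged RPE, against 8.80, 8.49 and 8.49 in dark-adapted RPE. Cd68 and Cd52 led the markers at 4.31-fold and 2.97-fold, and the list's microglial genes differed among themselves. Cx3cr1 rose 1.41-fold (limma adjusted p = 0.0401), with 0.04 from its second probe set, while Tmem119 and P2ry12 had 0.03 ± 0.09 and -0.34 ± 0.09 and did not pass, and these 3 were chosen after their values were seen. Of 6 monocyte genes 3 rose, with F13a1 at 3.17-fold, and of 10 neutrophil genes S100a8 and S100a9 rose. No gene passed in limma among 11 T, B and NK lymphocyte markers, where 3 had an unadjusted p under 0.05, or among 6 mast cell markers, where 2 did, against 19.0% of all genes. Gzma of cytotoxic lymphocytes came nearest, at 0.46 ± 0.10 (limma adjusted p = 0.0570), and of 5 platelet markers Pf4, which macrophages also express, rose. The part of any of these cells in the members' rises was not tested.

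The defining RPE genes were at high levels: Rpe65 averaged 13.77 in light-damaged and 14.38 in dark-adapted RPE, Ttr 14.69 and 14.72, near the top of the scale. All 15 RPE markers had a difference below 0 and 4 fell, with Rrh at -0.82, and their mean level was 11.56, 11.94 and 12.10 in light-damaged RPE against 12.19, 12.27 and 12.54 in dark-adapted RPE. Photoreceptor transcripts were present too, with a mean level of 11.21, 11.63 and 11.96 in light-damaged RPE against 11.87, 12.48 and 12.37 in dark-adapted RPE, and 8 of 15 fell. The part of this shift in the members' rises was not tested.

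**Figure D5:**
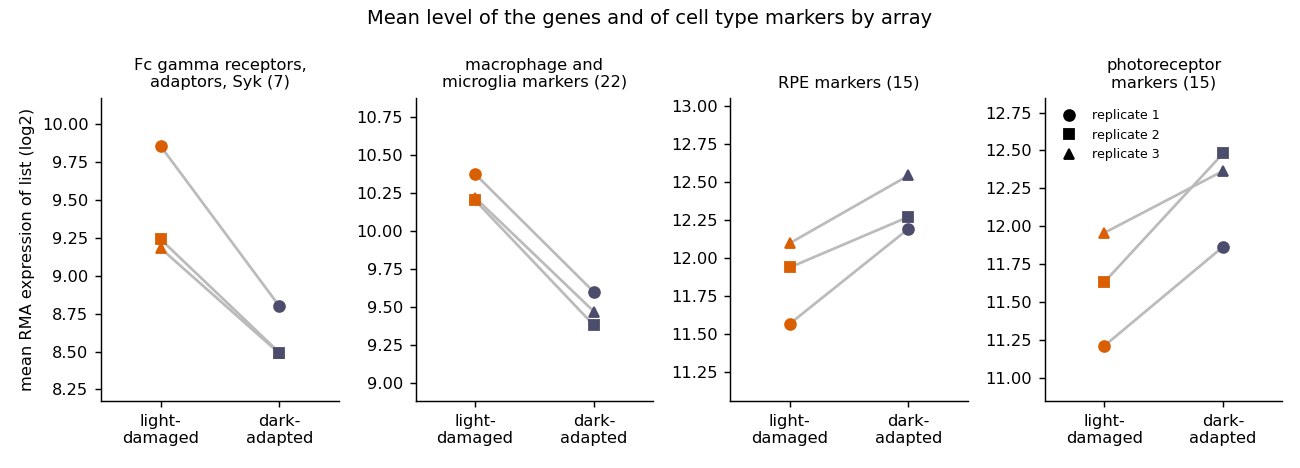
Mean log2 RMA level per array (vertical axes, each of the same span) of the 7 genes, 22 macrophage and microglia markers, 15 RPE markers and 15 photoreceptor markers, light-damaged (left) and dark-adapted (right), with lines joining arrays of the same replicate number. In each of the 3 pairs the light-damaged point lies above its partner for the first 2 lists and below it for the other 2.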

How the data were processed

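The authors deposited RMA expression per probe set, per the submitters' processing notes, which give no version. The range of 3.72 to 14.82 fits a log2 scale, and the deposited values were taken as log2. RMA compresses differences near the background and near saturation, and there are no detection calls. The platform annotation of 2016 gave exactly 1 symbol to 34945 of 45101 probe sets, 34741 of them were matched to the GRCm38.p6 gene table by Entrez number, and 0 symbols changed. The brightest probe set per gene left 18193 genes, on which limma 3.58.1 in R 4.3.3 (lmFit, eBayes, two-sided, Benjamini-Hochberg over all genes) was run, and the script was tested on simulated data. Further probe sets were tested in the same fit over all single-symbol probe sets.

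The replicate number was a block, since same-numbered arrays, which the labels give numbers 1 to 3 in both groups, deviated together from their group means (correlations across genes of 0.89, 0.62 and 0.86). Replicates 2 and 3 were told apart less well: light-damaged 3 with dark-adapted 2 gave 0.65 and light-damaged 2 with dark-adapted 3 gave 0.61, so dark-adapted 2 correlated best with another number. The labels do not say what a number marks.

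The members and all 14 lists (226 genes, 199 measured) were chosen with earlier results of these data known. Named were all members, up to 4 genes per list with the smallest p, the partner receptors and lymphocyte adaptors, and the 6 genes nearest in pattern. Others are marked as chosen after their values were seen, and the promoter motifs and chromosomal neighbours were also chosen after seeing the data. Alternatives changed the block, normalization, filter, pseudocount, probe set choice, limma settings and arrays.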

Additional observations from a re-analysis of the deposited data

How the results depend on the processing

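With no replicate block every member kept its direction and none was called: Fcgr1, Fcgr3, Fcer1g, Tyrobp and Syk differed by 1.32, 0.98, 0.97, 1.06 and 0.76, with adjusted p-values of 0.0837, 0.644, 0.188, 0.688 and 0.753. Over all genes 9 were then called higher and 0 lower, against 559 and 349 with the block. Syk lost its call after a further quantile normalization (0.78), with 16 added (0.73) and with the mean of probe sets (0.30). With the mean of probe sets Fcgr2b passed at 0.74 (adjusted p = 0.0219), and the change of Syk minus that of Fcgr2b turned to -0.44. With only Fcgr2b read as that mean it was 0.02. Leaving out dim genes gave 365 genes called higher, and Fcgr1 fell below that filter. Median centring called 5 members, with 516 genes called higher and 423 lower over all genes. Probe sets tested separately also called 5 members by their chosen probe sets, where 2.38% of all probe sets were called higher. Leaving out x_at and s_at probe sets, and limma with trend and robust settings, each called 5 members. For these last settings no count over all genes is given here. Leaving out a pair with the block called 4 or 5 members, 160 to 827 genes higher and 68 to 418 lower; without replicate 3 Syk, at 0.87, missed the threshold, and Syk ranged from 0.55 to 0.87. Leaving out 1 array with no block called 0 members, 3 to 12 genes higher and 0 lower. There Fcgr1 ranged from 1.16 to 1.45, Fcgr3 from 0.66 to 1.16, Fcer1g from 0.87 to 1.13, Tyrobp from 0.68 to 1.29 and Syk from 0.48 to 1.01. The causes of these shifts were not tested. With 3 arrays a group and no detection calls, differences of dim probe sets are the least precise.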
